A study of Caenorhabditis elegans with 18 samples.

Results

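The comparison described here set whole worms of the mutant strain met-2(ok2307) against whole worms of the laboratory wild type N2, both fed bacteria that carried the empty vector (EV) used as the RNAi control. It rests on 6 of the 18 libraries of the series, 3 of met-2 and 3 of N2, chosen by their titles. The study grew N2 and the mutants met-2(ok2307) and lin-65(n3441) from hatching at 20 °C on EV or on cco-1 RNAi bacteria, which lower a subunit of cytochrome c oxidase, and collected L4 larvae. PolyA RNA was purified from the clarified lysate of frozen, ground worms. All animals compared here were L4 larvae on EV, so the strain was the labelled difference. One met-2 allele was used, and the labels do not say how many worms went into a library or whether replicates were separate cultures, so each p-value measures the spread between these libraries, which may be technical.

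MET-2 is a histone methyltransferase that adds methyl groups to lysine 9 of histone H3 (H3K9). Its cofactors LIN-65 and ARLE-14 help MET-2 to accumulate in foci in the nucleus. SET-25 and SET-32 are further enzymes of the pathway, and H3K9 methylation marks silent chromatin held at the nuclear periphery. H3K9 methylation lies mostly on the arms of the autosomes, over repeats and silent tissue-specific genes. MET-2 and LIN-65 have also been linked to the mitochondrial unfolded protein response (UPRmt), the induction of mitochondrial chaperones such as HSP-6 when the respiratory chain is impaired.

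Each library lists counts for 20505 gene models. The 3 met-2 libraries held 16903191, 14982640 and 13726891 counts and the 3 N2 libraries 7081672, 16006525 and 19261705. A count of 3 therefore corresponds to 0.177 to 0.219 counts per 1000000 counts of the library (CPM) in met-2 and to 0.156 to 0.424 CPM in N2. Libraries of one strain varied beyond counting error, as a chi-square statistic divided by its degrees of freedom came to between 15.8 and 58.4 for each pair. Levels below are CPM of single libraries or their mean ± SD with n = 3 a strain. Differences are log2 fold changes of met-2 over N2 ± SE from edgeR, and a gene is called when its adjusted p is under 0.05. CPM values are not corrected for gene length and are compared only within a gene.

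Of 14343 genes tested, 6865 were called (47.9%), 3662 of them higher (25.5%) and 3203 lower (22.3%) in met-2. These shares are the background for each count below. The libraries of both strains did not overlap for 8117 of the tested genes (56.6%). A rise of over 2 on the log2 scale was called for 438 genes (3.05%) and a fall of that size for 255 (1.78%).

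The fold change also followed the length of the annotated 3′ untranslated region (UTR) of a gene. Deviations of a library from the mean of the 6 correlated with 3′ UTR length over 13559 genes with Spearman coefficients of 0.41, 0.36 and 0.14 in met-2 replicates 1 to 3, and of -0.36, -0.24 and -0.26 in the N2 replicates. All 3 met-2 libraries were thus on one side and all 3 N2 libraries on the other, with met-2 replicate 3 nearest to N2. Among the quintile of genes with the longest 3′ UTRs (326 to 5363 bases) 49.9% were called higher and 6.92% lower, with a median of 0.62. Among the quintile with the shortest (1 to 69 bases) 14.8% were called higher and 36.9% lower, with a median of -0.39. The source of the trend was not tested. It ran along with strain, so its removal also takes away any strain difference tied to 3′ UTR length. The design cannot tell such a difference from a technical one. When the trend was removed from each library, 3051 genes were called higher and 3232 lower (43.8% in all, with 2.68% higher by over 2), and 2689 of the 3662 higher and 2597 of the 3203 lower calls were shared. Values with the trend removed, an analysis added after the data were seen, are given beside named genes whose call or direction they changed. They are also given where the log2 value of a named gene changed by over 1.5 times. Lists are followed in that way only where the text gives such values. Counts of list members of 3 or fewer also moved in that analysis and when 1 library was left out, in some lists by more than 2 genes. Such moves are followed only where the text says so.

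**Figure D1:**
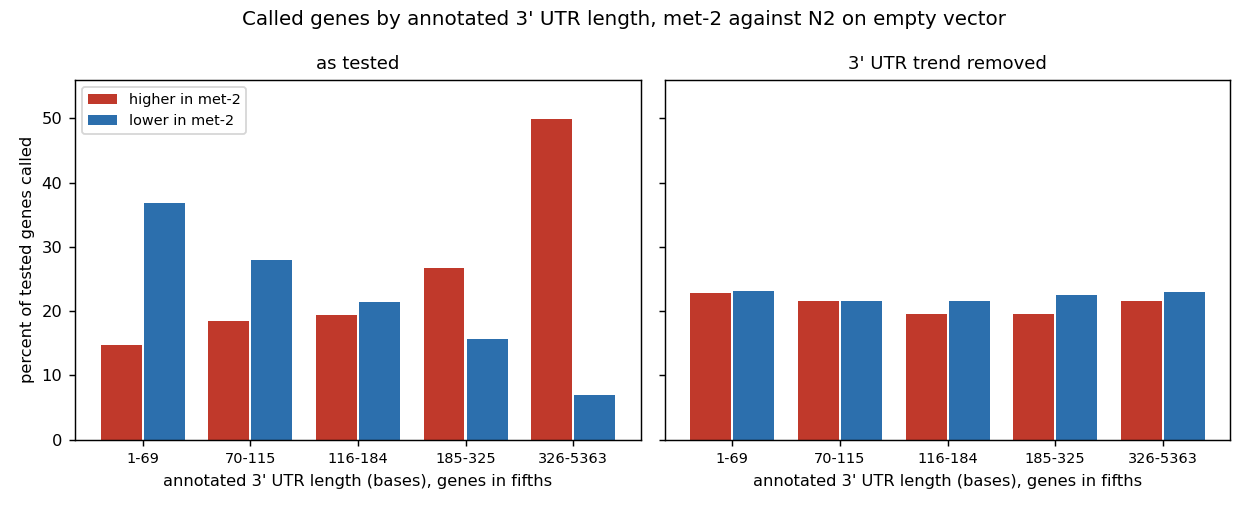
Percent of tested genes called higher (red) or lower (blue) in met-2 worms than in N2 on EV, for genes in quintiles of annotated 3′ UTR length in bases, as tested (left) and with the trend on 3′ UTR length removed from each library (right). As tested, the share called higher is 14.8% in the shortest quintile and 49.9% in the longest, and with the trend removed it is 22.8% and 21.5%.

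The strain gene itself was lower in the strain labelled met-2. Transcripts of met-2 stood at 23, 17.8 and 12.7 CPM in met-2 worms, against 35.3, 38.9 and 40.2 CPM in N2. The groups did not overlap, and the difference was -1.09 ± 0.21 (adjusted p 0.00108). The ok2307 allele is a deletion, and counts were given per gene model, so reads from any remaining part of the transcript would be counted with the rest. The nearest neighbours of met-2 on chromosome III, lmbr-1 and R05D3.12, did not pass the test. Further away, R05D3.3 (-0.94 ± 0.22, adjusted p 0.00361) and ZK353.3 (-2.28 ± 0.33, adjusted p 0.000188) were called lower. The genes rfp-1, R05D3.9, ZK353.4 and ZK353.10 did not pass.

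The cofactor genes went in different directions. Transcripts of lin-65 were at 25.8, 23.7 and 17 CPM in met-2 worms, against 11.4, 13.1 and 13.4 CPM in N2, a rise of 0.82 ± 0.20 (adjusted p 0.0051). Without the 3′ UTR trend that value was 0.41 and its adjusted p 0.0944, so the call was lost, as it was when all 18 libraries shared one spread (adjusted p 0.0963). Transcripts of arle-14 fell to 24, 22 and 15.3 CPM in met-2 worms, against 39.7, 51.9 and 45.0 CPM in N2 (-1.14 ± 0.20, adjusted p 0.000711). The downstream enzymes did not pass the test. The gene set-25 stood at 17.3, 14.5 and 8.74 CPM in met-2 worms, against 12, 14.2 and 12 CPM in N2 (0.08 ± 0.23), and was at -0.64 with an adjusted p of 0.0266 once the 3′ UTR trend was removed. The gene set-32 averaged 5.87 CPM in met-2 worms and 9.19 CPM in N2 (-0.63 ± 0.26, adjusted p 0.0617), and its p was under the threshold in 3 alternative fits.

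A list drawn up for readers of H3K9 methylation and for the nuclear periphery had 14 tested genes, not all of them known readers or anchors. Of these 2 were called higher and 5 lower, and 3 lower without N2 replicate 2 or met-2 replicate 1. The counts were 1 and 8 without the 3′ UTR trend. The largest rise was in cec-8, which encodes a chromodomain protein, with 9.11, 9.34 and 3.86 CPM in met-2 worms, against 2.12, 2.25 and 1.97 CPM in N2 (1.82 ± 0.32, adjusted p 0.000706). The lower members included lem-3, a LEM-domain nuclease gene (-1.17 ± 0.20, adjusted p 0.000582), and lin-61, whose MBT-repeat protein binds methylated H3K9 (-1.01 ± 0.19, adjusted p 0.000858). The lin-61 libraries read 37.2, 31.4 and 35.6 CPM in met-2 worms and 77.7, 72.2 and 65.6 CPM in N2, far apart. The perinuclear anchor gene cec-4 and the HP1 gene hpl-1 did not pass the test, while the second HP1 gene hpl-2 fell by 0.59 (adjusted p 0.0348), a call lost without N2 replicate 1 or 2 or met-2 replicate 1 or 2 (adjusted p 0.0664 to 0.162). Of 11 tested histone demethylase genes 3 were called higher and 2 lower. They included jmjd-3.1, a lysine 27 demethylase linked to the UPRmt, with 31.6, 21.6 and 15.2 CPM in met-2 worms, against 10.2, 6.75 and 9.55 CPM in N2 (1.39 ± 0.25, adjusted p 0.000844; 0.90 without the 3′ UTR trend). Its partner in that response, jmjd-1.2, was higher by 0.80 ± 0.20 (adjusted p 0.00528). With all 18 libraries in one fit, the calls of jmjd-3.1 and jmjd-1.2 were lost (adjusted p 0.0703 and 0.105).

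Genes of small RNA pathways, some of which guide H3K9 methylation to their targets, were mixed. Of 21 tested RNA-dependent RNA polymerase and mutator genes 9 were called lower and 2 higher, and of 18 Argonaute genes 5 were lower and 3 higher, or 3 lower without N2 replicate 1, met-2 replicate 2 or met-2 replicate 3. The RNA-dependent RNA polymerase gene rrf-2 stood at 15.6, 10.5 and 7.94 CPM in met-2 worms, against 1.84, 0.687 and 1.40 CPM in N2 (3.2 ± 0.35, adjusted p 3.97e-05). Every met-2 library of rrf-2 was several times above every N2 library. The nuclease gene rde-8, which cuts RNAi targets, went the other way with 24.8, 21.6 and 15.7 CPM in met-2 worms and 59.0, 57.4 and 53.0 CPM in N2 (-1.43 ± 0.19, adjusted p 0.000123). The microRNA Argonaute gene alg-1 was higher by 2.49 ± 0.29 (adjusted p 5.27e-05), a value that became 1.37 without the 3′ UTR trend. The germline Argonaute genes alg-3 (-1.65 ± 0.27, adjusted p 0.000469), which acts in sperm, and wago-1 (-1.14 ± 0.24, adjusted p 0.00211) were lower, as was the nuclear RNAi gene nrde-4 (-0.92 ± 0.19, adjusted p 0.00205).

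The genes furthest above N2 averaged between near 0 and 59.6 CPM (col-166) there. By a rule that kept called genes with non-overlapping libraries, at least 5 CPM in the higher strain and a letters-number symbol, the 15 highest ran from 3.12 to 5.42. The TRAF-family gene trf-2 had 5.98, 5.54 and 7.14 CPM in met-2 worms, against 0, 0.25 and 0.104 CPM in N2 (5.42 ± 0.48, adjusted p 1.15e-05). At such low N2 counts the fitted size depends on the prior count of the fit. The scramblase-family gene scrm-4 read 109, 108 and 96.7 CPM in met-2 worms and 3.39, 3.69 and 4.36 CPM in N2, with little spread in either strain (4.78 ± 0.22, adjusted p 3.48e-08).

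Collagen genes, whose products build the cuticle, made up 6 of those 15. They were col-41, col-166, col-176, col-54, col-3 and col-169. Transcripts of col-41 were at 860, 603 and 540 CPM in met-2 worms, against 18.6, 15.2 and 26.3 CPM in N2 (5.07 ± 0.28, adjusted p 2.44e-07). Those of col-166 were at 751, 709 and 1013 CPM in met-2 worms, against 46.3, 61.5 and 71.0 CPM in N2 (3.84 ± 0.28, adjusted p 3.41e-06). Both genes lie on the X chromosome, as do col-176 (3.82 ± 0.36) and col-169 (3.48 ± 0.25). The value of col-3 leaned on 1 library: it read 31.4, 31.2 and 141 CPM in met-2 worms and 5.37, 7.06 and 6.65 CPM in N2, and its difference was 3.50 in all and 2.25 without met-2 replicate 3.

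The other 7 of the 15 had varied functions. They were srlf-34 (4.64 ± 0.25), the peptidyl-prolyl isomerase gene fkb-8 (3.70 ± 0.24), dpy-1 (3.49 ± 0.29), madf-9 (3.39 ± 0.45), rrf-2, the dystroglycan gene dgn-1 (3.17 ± 0.38) and the nuclear pore gene npp-25 (3.12 ± 0.29). The largest rise among genes with a count in each N2 library was in C38D9.2, a gene without a symbol that was picked after its values were seen. It read 250, 246 and 166 CPM in met-2 worms and 1.41, 0.875 and 0.571 CPM in N2 (8.01 ± 0.32, adjusted p 3.35e-08). A second gene picked in that way, F15D4.5, read 192, 169 and 108 CPM in met-2 worms and 0.847, 1.12 and 1.82 CPM in N2 (6.86 ± 0.31, adjusted p 3.48e-08). Its next gene on chromosome II, F15D4.6, was also higher, with 7.22, 7.81 and 2.7 CPM in met-2 worms and 0.282, 0.812 and 0.363 CPM in N2 (3.50 ± 0.47, adjusted p 0.000122). The genes next to C38D9.2 on chromosome V, fbxa-171 and fbxa-133, were at 0.267 CPM or less in every library and were not tested.

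Some genes had no count in any N2 library on EV. The highest of them in met-2 was Y82E9BR.17, with 59, 38 and 60 counts in the met-2 libraries, which is at least 48.6-fold higher than the 0.0708 CPM that 3 counts over all N2 counts would give.

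**Figure D2:**
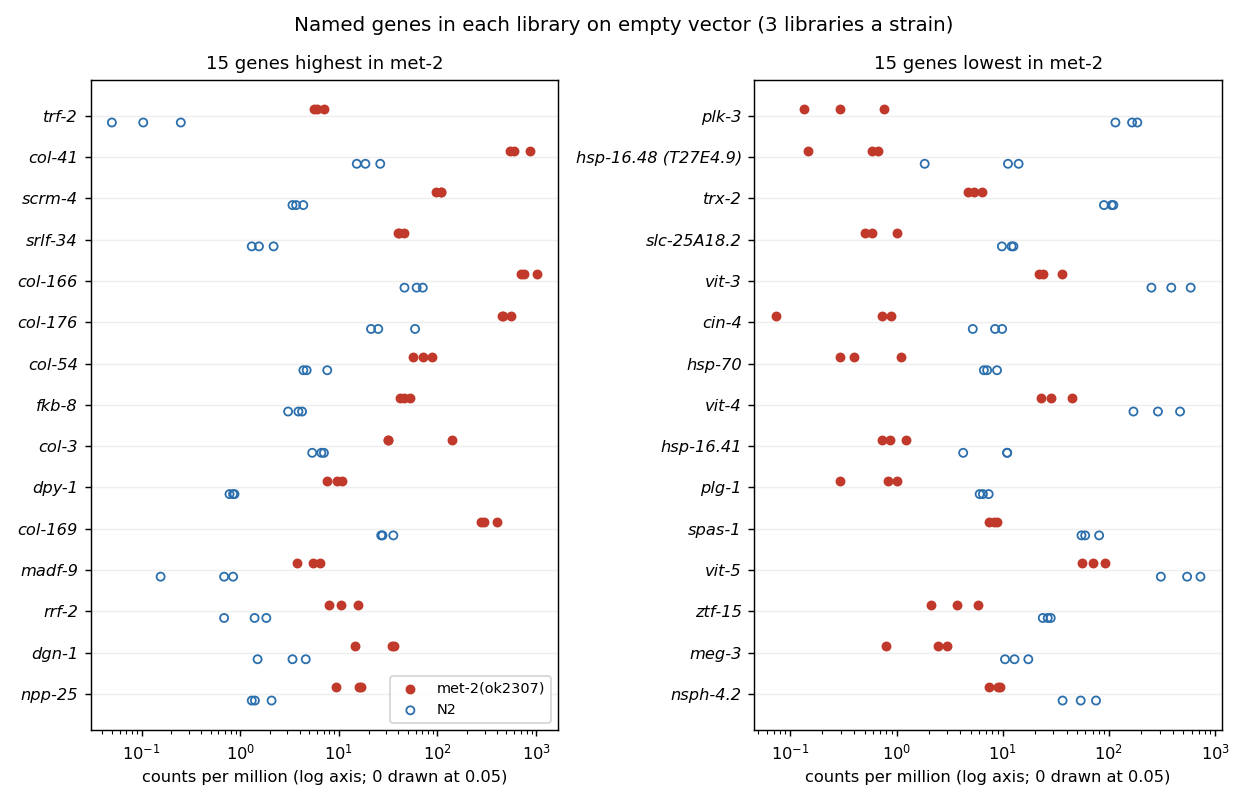
CPM in each library on EV, on a log axis with 0 drawn at 0.05, for the 15 genes furthest above N2 in met-2 (left) and the 15 furthest below (right). Filled red points are the 3 met-2 libraries and open blue points the 3 N2 libraries, which do not overlap for any gene shown because the rule required it.

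Among the lowest genes, several were at or near the counting floor in met-2 and were next to each other in the genome. The polo-like kinase gene plk-3 read 0.769, 0.133 and 0.291 CPM in met-2 worms and 185, 165 and 115 CPM in N2 (-8.51 ± 0.41, adjusted p 5.51e-08). The next gene on chromosome IV, F55G1.6, read 0.651, 0.4 and 0.291 CPM in met-2 worms and 54.1, 47.6 and 39.8 CPM in N2 (-6.64 ± 0.30, adjusted p 3.48e-08). The gene after that, slc-25A18.2, a mitochondrial carrier family gene, read 0.592, 1 and 0.51 CPM in met-2 worms and 12, 13 and 9.8 CPM in N2 (-3.99 ± 0.32, adjusted p 6.23e-06). All 3 were close to silent in every met-2 library. On one side pycr-4 fell by 1.2 ± 0.19 (adjusted p 0.000385) and rod-1 did not pass the test, and on the other F55G1.7 did not pass. Whether these genes are intact in the met-2 strain was not tested, since the files hold counts and no genotype.

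A second pair of neighbours, D1014.6 and D1014.7 on chromosome V, was near 0 in met-2 as well. D1014.6 read 0.177, 0.0667 and 0 CPM in met-2 worms and 8.90, 4.94 and 21.5 CPM in N2 (-6.94 ± 0.73, adjusted p 3.28e-05). D1014.7 read 0, 0.2 and 0.219 CPM in met-2 worms and 8.47, 3.37 and 16.9 CPM in N2 (-6.07 ± 0.74, adjusted p 7.26e-05). The genes on their outer sides, myo-5 and D1014.5, did not pass the test.

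Mitochondrial thioredoxin, encoded by trx-2, was low along with the next 4 genes on one side, which was as far as neighbours were read. It read 4.67, 5.34 and 6.41 CPM in met-2 worms and 106, 110 and 89.7 CPM in N2 (-4.18 ± 0.24, adjusted p 3.59e-07). The next 4 genes on chromosome V were lower by smaller amounts, namely asps-1 (-1.35 ± 0.20), B0024.11 (-1.42 ± 0.20), gna-1 (-1.52 ± 0.28) and B0024.13 (-1.52 ± 0.24). Each of these 4 had non-overlapping libraries. On the other side gcy-6 was not tested, che-12 did not pass (0.20 ± 0.33) and B0024.4 was higher (0.92 ± 0.34, adjusted p 0.04). A further gene without a symbol, C01A2.4, read 2.66, 3.94 and 3.21 CPM in met-2 worms and 52.1, 52.0 and 48.8 CPM in N2 (-3.93 ± 0.23, adjusted p 5.08e-07). The genes F55G1.6, D1014.6, D1014.7, C01A2.4 and the neighbours of named genes were picked after their values were seen.

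Inducible heat shock genes, which encode chaperones of the cytosol, were next among the lowest. Of 24 tested genes of the list 9 were called lower and 2 higher. Transcripts of hsp-70 were at 0.296, 0.4 and 1.09 CPM in met-2 worms, against 6.64, 7.12 and 8.83 CPM in N2 (-3.65 ± 0.42, adjusted p 5.63e-05). The small heat shock genes hsp-16.41 (-3.2 ± 0.39, adjusted p 7.16e-05), hsp-16.2 (-2.53 ± 0.37, adjusted p 0.000202) and hsp-16.48 (gene model T27E4.9; -4.26 ± 0.64, adjusted p 0.000237) were lower too, each from at most 14.1 CPM in any N2 library. Genes of this family are near identical and may share reads. The 2 members called higher, hsp-3 and hsp-4, encode chaperones of the endoplasmic reticulum (ER) and are described with that list.

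Yolk genes, described next, were 3 of the remaining 9 low genes of the rule. The P granule gene meg-3 read 2.43, 3.00 and 0.801 CPM in met-2 worms and 12.9, 17.4 and 10.5 CPM in N2 (-2.69 ± 0.36, adjusted p 0.000129). The topoisomerase-related gene cin-4 (-3.75 ± 0.46), the zinc finger gene ztf-15 (-2.74 ± 0.28), the spastin gene spas-1 (-2.97 ± 0.22), the mucin gene plg-1 (-3.19 ± 0.35) and nsph-4.2 (-2.66 ± 0.26) were the other 5.

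Yolk protein genes, which the intestine of the adult hermaphrodite transcribes to feed oocytes, were lower for all 6 members. Transcripts of vit-3 were at 24, 35.9 and 21.8 CPM in met-2 worms, against 251, 588 and 386 CPM in N2 (-3.88 ± 0.33, adjusted p 9.22e-06). Those of vit-2 were at 575, 781 and 287 CPM in met-2 worms, against 1399, 2787 and 2272 CPM in N2 (-1.97 ± 0.34, adjusted p 0.000599). The smallest fall was in vit-6, with 885, 1206 and 456 CPM in met-2 worms and 1305, 2635 and 2120 CPM in N2 (-1.25 ± 0.33, adjusted p 0.00807). The groups did not overlap for any of these, and within N2 replicate 1 was the lowest for each of them. The median of the list was -2.42. The genes vit-3, vit-4 (-3.26 ± 0.36) and vit-5 (-2.83 ± 0.31) are near identical and may share reads. The call of vit-6 was lost when all 18 libraries shared one spread (adjusted p 0.0756).

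Sperm genes, transcribed in the L4 germline when the hermaphrodite makes its sperm, were lower for the most part. Of 29 tested major sperm protein genes 27 were called lower and 0 higher, with a median of -1.47. Of 61 other sperm genes 47 were called lower and 1 higher, with a median of -1.16. The summed level of the other sperm genes was 1244, 1468 and 1187 CPM in met-2 worms, against 3725, 4490 and 2854 CPM in N2. Examples were ssq-1, with 59.0, 82.2 and 61.7 CPM in met-2 worms and 356, 391 and 245 CPM in N2 (-2.26 ± 0.24, adjusted p 3.78e-05), and the sperm phosphatase gene gsp-4, with 14.6, 14.7 and 13 CPM in met-2 worms and 59.3, 52.5 and 39.7 CPM in N2 (-1.81 ± 0.21, adjusted p 5.63e-05). Also lower were ssp-10 (-2.22 ± 0.24), msp-81 (-2.36 ± 0.26), msp-36 (-1.6 ± 0.22) and the dysferlin gene fer-1 (-1.29 ± 0.25), needed for sperm membrane fusion. In whole worms fewer germ cells, less RNA per germ cell and a difference in time within the L4 stage cannot be told apart.

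Most tested oocyte genes and most genes of earlier germ cells were called lower as well. Of 24 tested oocyte and eggshell genes 19 were called lower and 1 higher, with a median of -1.16. The eggshell gene cbd-1 read 119, 127 and 59.8 CPM in met-2 worms and 311, 377 and 261 CPM in N2 (-1.63 ± 0.26, adjusted p 0.000352), and egg-2, needed to activate the fertilized egg, fell by 1.79 ± 0.27 (adjusted p 0.000273). The exception was mbk-2, a kinase gene of the oocyte-to-embryo transition (1.36 ± 0.25, adjusted p 0.000981), which was at 0.21 with an adjusted p of 0.455 without the 3′ UTR trend. Of 38 germ granule and meiosis genes 25 were called lower and 0 higher, with a median of -0.64. The meiotic chromosome gene lab-1 read 19.3, 15.7 and 16.8 CPM in met-2 worms and 57.5, 125 and 63.4 CPM in N2 (-2.23 ± 0.29, adjusted p 0.000103). The gene spo-11, whose product cuts DNA to start meiotic recombination, fell by 1.52 ± 0.21, the P granule helicase gene glh-2 fell by 1.30 ± 0.21 and the pairing centre gene zim-3 fell by 1.29 ± 0.20.

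Shorter lists of cell type markers, some of whose genes are also in the lists above, moved the same way. Of 10 germ cell markers 6 were called lower, of 10 sperm markers 8 lower and 1 higher, and of 10 oocyte markers 9 lower. The germ cell count became 2 without met-2 replicate 1 and 4 without N2 replicate 2 or met-2 replicate 2 or 3, and the oocyte count 5 without N2 replicate 2 and 6 without met-2 replicate 1. Summed germ cell markers ran from 786 to 910 CPM in met-2 worms and from 1049 to 1279 CPM in N2. Summed sperm markers ran from 208 to 223 CPM in met-2 worms and from 388 to 625 CPM in N2, and summed oocyte markers from 293 to 613 CPM in met-2 worms and from 856 to 1396 CPM in N2. No marker of these 3 lists was at 0 in all libraries. Their part in the germline and yolk differences, or in those of the lists below, was not tested.

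Fewer than 1 in 2 of the tested histone and DNA repair genes were called lower. Of 34 tested histone genes 14 were called lower and 0 higher, with a median of -0.83, and the H3.3-like gene his-74 read 62.3, 62.3 and 53.9 CPM in met-2 worms and 138, 128 and 108 CPM in N2 (-1.04 ± 0.18, adjusted p 0.000695). Most histone transcripts have no polyA tail, and histone genes are near identical, so their counts are a weak measure of them. Of 25 DNA damage and apoptosis genes 12 were called lower and 1 higher, with a median of -0.56. Among them were the excision repair gene xpa-1 (-1.07 ± 0.20, adjusted p 0.000878) and the BRCA2 gene brc-2 (-0.96 ± 0.20, adjusted p 0.00212).

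**Figure D3:**
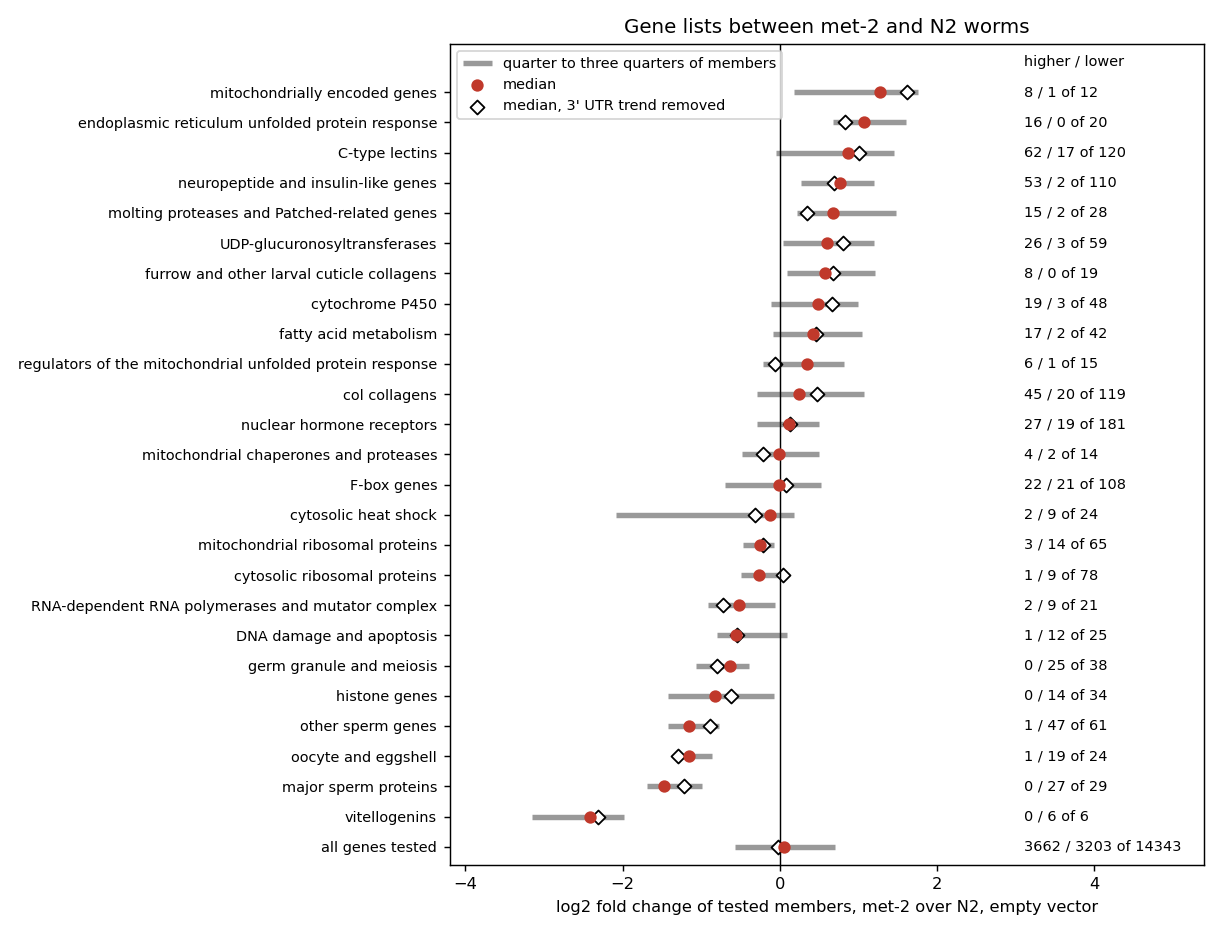
Median log2 fold change of the tested members of 25 gene lists and of all genes tested, met-2 over N2 on EV (red points), with the interquartile range of the members as a grey bar and the median after removal of the 3′ UTR trend as an open diamond. Numbers at the right give members called higher and lower in met-2 of those tested. Yolk, sperm and oocyte lists have the lowest medians and mitochondrially encoded and ER stress genes the highest.

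Somatic markers were called higher in varying number. Of 11 neuron markers 8 were called higher and 0 lower, of 7 pharynx markers 6 and 0, of 8 hypodermis markers 6 and 0, of 9 tested intestine markers 4 and 0, and of 10 body wall muscle markers 2 and 1, or 0 and 2 without the 3′ UTR trend. Summed neuron markers ran from 471 to 593 CPM in met-2 worms and from 216 to 282 CPM in N2, and summed pharynx markers from 615 to 862 CPM in met-2 worms and from 304 to 331 CPM in N2. The neuropeptide convertase gene egl-3 read 208, 183 and 126 CPM in met-2 worms and 39.4, 43.1 and 54.6 CPM in N2 (1.93 ± 0.21, adjusted p 4.22e-05; 1.24 without the 3′ UTR trend). The second neuropeptide enzyme gene, egl-21, read 107, 98.1 and 111 CPM in met-2 worms and 41.9, 32.4 and 42.1 CPM in N2 (1.48 ± 0.20, adjusted p 0.000114). The synaptobrevin gene snb-1 (1.38 ± 0.22, adjusted p 0.000417; 0.87 without the trend), the pharynx genes abu-14 (2.05 ± 0.24, adjusted p 5.77e-05) and myo-2 (1.48 ± 0.20, adjusted p 0.000126) were higher as well. Without the 3′ UTR trend 6 neuron markers were called higher and 2 lower. The hypodermis count was 3 higher without met-2 replicate 1 or 2 and 4 without N2 replicate 1 or 2.

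Neuropeptide and insulin-like genes, signals that neurons release, had many members called higher. Of 110 tested members 53 were called higher and 2 lower, with a median of 0.76, and without met-2 replicate 3 the counts were 42 and 7 and the median 0.57. The gene nlp-8 read 10.4, 9.08 and 5.32 CPM in met-2 worms and 0.141, 1.00 and 1.35 CPM in N2 (3.11 ± 0.41, adjusted p 0.000115). The gene flp-18 read 31.5, 39.6 and 47.2 CPM in met-2 worms and 13.1, 12.9 and 11.5 CPM in N2 (1.71 ± 0.23, adjusted p 0.000141), and nlp-9 was higher by 1.42 ± 0.19 (adjusted p 0.000139). The summed level of the family did not separate the strains, with 2660, 2426 and 3890 CPM in met-2 worms and 2802, 2612 and 2173 CPM in N2.

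Cuticle and molting genes were higher more often than lower. Of 119 tested col genes 45 were called higher and 20 lower, and of 19 furrow and other larval collagens 8 were higher and 0 lower. Without the 3′ UTR trend 52 col genes were called higher and 16 lower, and their median went from 0.24 to 0.47. The furrow collagen genes dpy-7 and dpy-3 are transcribed in pulses within each larval stage. Transcripts of dpy-7 were at 145, 152 and 186 CPM in met-2 worms, against 53.5, 25.6 and 86.6 CPM in N2 (1.59 ± 0.34, adjusted p 0.00218). Those of dpy-3 were higher by 1.64 ± 0.33 (adjusted p 0.00155) and those of sqt-3 by 1.26 ± 0.26 (adjusted p 0.00171). The N2 replicates themselves spread over 3-fold for dpy-7. Of 28 molting proteases and Patched-related genes 15 were called higher and 2 lower. They included nhr-23, the receptor gene that drives molting, with 32.8, 28.7 and 24 CPM in met-2 worms and 6.64, 9.06 and 8.46 CPM in N2 (1.83 ± 0.21, adjusted p 5.23e-05), and the fibrillin-related gene fbn-1 (2.76 ± 0.36, adjusted p 0.000107). The Patched-related gene ptr-2 went the other way (-1.27 ± 0.20, adjusted p 0.000305). Without the 3′ UTR trend 12 genes of the molting list were called higher and 2 lower, and its median went from 0.67 to 0.34. The exact time of collection within the L4 stage is not given in the labels. Stage and strain therefore cannot be told apart for such genes, or for the yolk and germline genes above.

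Most genes of the ER unfolded protein response were higher. Of 20 tested genes of that list 16 were called higher and 0 lower, with a median of 1.07, and 14 and 0 without the 3′ UTR trend. Their summed level was 15124, 14457 and 12870 CPM in met-2 worms, against 5251, 5480 and 7896 CPM in N2. The endoplasmin gene enpl-1 read 925, 793 and 605 CPM in met-2 worms and 136, 170 and 252 CPM in N2 (2.07 ± 0.25, adjusted p 7.45e-05). The BiP gene hsp-3 read 1676, 1336 and 1343 CPM in met-2 worms and 288, 325 and 521 CPM in N2 (1.97 ± 0.26, adjusted p 0.000105). The second BiP gene, hsp-4, which responds most to ER stress, rose less, with 316, 315 and 230 CPM in met-2 worms and 159, 161 and 179 CPM in N2 (0.81 ± 0.19, adjusted p 0.00393). The ER oxidoreductase gene dnj-27 was higher by 1.92 ± 0.23, the co-chaperone gene dnj-7 by 1.6 ± 0.20 (1.05 without the trend) and the calreticulin gene crt-1 by 1.13 ± 0.24 (adjusted p 0.0021).

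The mitochondrial chaperone response was uneven. The UPRmt reporter gene hsp-6 read 703, 675 and 390 CPM in met-2 worms and 204, 293 and 308 CPM in N2 (1.14 ± 0.25, adjusted p 0.00226). All met-2 libraries were above all N2 libraries, and met-2 replicate 3 was close to them. Without the 3′ UTR trend the difference was 0.58 (adjusted p 0.0421), and with all 18 libraries in one fit the call was lost (adjusted p 0.0502). The second chaperone gene of the response, hsp-60, did not pass the test, with 528, 526 and 418 CPM in met-2 worms and 514, 426 and 504 CPM in N2 (0.05 ± 0.20, adjusted p 0.839), and was at -0.41 without the 3′ UTR trend (adjusted p 0.105). Of the 14 tested mitochondrial chaperones and proteases 4 were called higher and 2 lower, and one of the 4 was enpl-1, which is an ER chaperone. The counts were 2 and 3 without the 3′ UTR trend. Of the others trap-1 was higher by 0.66 ± 0.22 and the protease gene clpp-1 lower (-0.56 ± 0.18), and both calls rested on single libraries. That of trap-1 was lost without N2 replicate 1, met-2 replicate 2 or met-2 replicate 3 (adjusted p 0.0521 to 0.0825), and without the 3′ UTR trend (0.41, adjusted p 0.135). That of clpp-1 was lost without N2 replicate 2, met-2 replicate 1 or met-2 replicate 2 (adjusted p 0.055 to 0.0987). The list had 2 members called higher without N2 replicate 1, 0 called lower without met-2 replicate 1 or 2 and 5 called lower without met-2 replicate 3.

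Of 15 tested regulators of the UPRmt 6 were called higher and 1, met-2 itself, lower. The transcription factor gene atfs-1, which senses failed mitochondrial import, did not pass (0.35 ± 0.19, adjusted p 0.134). The chromatin factor gene dve-1 read 17.6, 16.3 and 11.9 CPM in met-2 worms and 5.79, 5.69 and 7.53 CPM in N2 (1.28 ± 0.22, adjusted p 0.000653). It was at 0.56 without the 3′ UTR trend (adjusted p 0.0421), and the call was lost with all 18 libraries (adjusted p 0.0807). The transcription factor gene cebp-1 read 38.1, 37.8 and 28.0 CPM in met-2 worms and 7.77, 10.4 and 11.4 CPM in N2 (1.82 ± 0.21, adjusted p 6.04e-05). The median of the list was 0.35, and it was -0.06 without the 3′ UTR trend, so its sign depended on that step.

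Most transcripts of the mitochondrial genome were higher in met-2. Of the 12 protein-coding genes on it 8 were called higher and 1 lower, with a median of 1.27, and 9 and 0 without the 3′ UTR trend. Without N2 replicate 2 the counts were 7 and 3. Their summed level was 48016, 38356 and 51597 CPM in met-2 worms, against 25082, 16564 and 21234 CPM in N2. The gene model MTCE.26 had the largest gain in CPM of all called genes, with 13577, 11353 and 12465 CPM in met-2 worms and 3378, 2829 and 3841 CPM in N2 (1.93 ± 0.24, adjusted p 8.09e-05). Others were MTCE.16 (2.4 ± 0.24, adjusted p 2.66e-05), MTCE.35 (2.32 ± 0.23, adjusted p 2.19e-05), MTCE.25 (1.69 ± 0.24, adjusted p 0.000188) and MTCE.21 (1.49 ± 0.25, adjusted p 0.00049). The complex I gene ND1 was higher by 1.1 (adjusted p 0.00154) and the cytochrome c oxidase gene COX3 by 0.73 (adjusted p 0.0477), and ND6 did not pass. The call of COX3 was lost without N2 replicate 2 or 3 or met-2 replicate 1 or 3 (adjusted p 0.0831 to 0.143), and its value without the 3′ UTR trend was 1.37 (adjusted p 0.00146). The one lower model, MTCE.4 (-1.36 ± 0.36, adjusted p 0.00761), was at -0.90 without N2 replicate 1, and lost its call without the 3′ UTR trend (-0.70, adjusted p 0.132).

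Nuclear genes of the mitochondrion were called in varying number, where 25.5% of all genes were called higher and 22.3% lower. Of 14 cytochrome c oxidase and assembly genes 1 was called higher and 0 lower, and of 65 mitochondrial ribosomal protein genes 3 were higher and 14 lower. The 14 became 5 and 6 without met-2 replicates 1 and 2, 9 without N2 replicate 1 or 3 and 21 without met-2 replicate 3. Of 12 tested import genes 3 were called higher and 0 lower, among them the receptor gene tomm-20, with 55.8, 70.5 and 58.7 CPM in met-2 worms and 39.7, 36.5 and 40.1 CPM in N2 (0.70 ± 0.19, adjusted p 0.00799). That call was lost without met-2 replicate 2 (adjusted p 0.0544), where 1 import gene was called higher; 2 were without met-2 replicate 1 or N2 replicate 1 or 2. Without met-2 replicate 3 the counts were 3 higher and 3 lower.

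Several families of detoxification and defence had more members called higher than lower. Of 59 tested UDP-glucuronosyltransferases 26 were called higher and 3 lower, of 48 cytochrome P450 genes 19 and 3, and of 120 C-type lectins 62 and 17. Over all genes 25.5% were called higher, and the families were not tested as such. The P450 count became 11 higher without met-2 replicate 1. The lectin gene clec-48 read 41.8, 42.7 and 34 CPM in met-2 worms and 6.64, 9.25 and 7.79 CPM in N2 (2.33 ± 0.21, adjusted p 1.21e-05). The lectin genes clec-17 (5.24 ± 0.54, adjusted p 2.98e-05) and clec-42 (5.88 ± 0.60, adjusted p 2.99e-05) had the largest rises of the family, from at most 0.141 CPM in any N2 library. Of 240 genes with lectin symbols 120 were tested, so a member low in both strains is not in these counts.

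Infection response genes that were higher included irg-7, with 1042, 883 and 429 CPM in met-2 worms and 165, 173 and 177 CPM in N2 (2.20 ± 0.27, adjusted p 7.43e-05), irg-5 (2.76 ± 0.30) and irg-4 (1.87 ± 0.27). Of 23 tested immune effectors 7 were called higher and 0 lower. Without the 3′ UTR trend the counts were 9 and 0, and the median went from 0.36 to 0.67. The lysozyme genes split: lys-7 (1.76 ± 0.28, adjusted p 0.000352) and lys-2 (1.33 ± 0.20, adjusted p 0.000239) were higher, while ilys-5, an invertebrate-type lysozyme gene, read 379, 321 and 459 CPM in met-2 worms and 1317, 1359 and 1493 CPM in N2 (-1.80 ± 0.24, adjusted p 0.000112). Among redox genes gcs-1, which starts glutathione synthesis, read 56.7, 45.0 and 29.4 CPM in met-2 worms and 8.61, 8.18 and 8.10 CPM in N2 (2.41 ± 0.23, adjusted p 1.63e-05).

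In lipid metabolism 17 of 42 tested genes were called higher and 2 lower. They included fat-5, a fatty acid desaturase gene, with 20.2, 23.2 and 13.1 CPM in met-2 worms and 2.54, 3.37 and 2.39 CPM in N2 (2.77 ± 0.27, adjusted p 2e-05), and the acyl-CoA synthetase gene acs-2 (2.67 ± 0.34, adjusted p 9.74e-05). Nuclear hormone receptors, a family known for metabolic control, had 27 called higher and 19 lower of 181 tested, where 47.9% of all genes were called, and 9 and 11 lower without met-2 replicates 1 and 2. Within it nhr-155 stood out at 19.3, 18.7 and 20.0 CPM in met-2 worms, against 2.97, 1.87 and 2.44 CPM in N2 (3.06 ± 0.25, adjusted p 7.21e-06).

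In large families whose members are mostly silent in a given tissue, calls went both ways. Of 322 F-box genes 108 were tested, with 22 called higher and 21 lower, and 11 and 14 higher without met-2 replicates 1 and 2. Of 1346 genes with symbols that begin with sr or str, most of them chemoreceptors but others not, such as srf-3 and srpa-72, 76 were tested, with 22 called higher and 11 lower (5 and 7 lower without met-2 replicate 2 and N2 replicate 2), and 301 had no count in any of the 6 libraries. The summed level of all 1346 was 2605, 2389 and 2012 CPM in met-2 worms, against 1690, 1652 and 1818 CPM in N2, without overlap. A few expressed genes, also ones that are not chemoreceptors, can carry such a sum, and their part in it was not tested. Over all genes 25.5% were called higher and 22.3% lower, and no test was made on these families.

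Among called genes the largest losses in CPM were in rla-1, rpl-17, rpl-3, C37A2.7, dct-16 and eef-1G. The rpl and rla genes encode cytosolic ribosomal proteins and eef-1G an elongation factor. Transcripts of rla-1 were at 2038, 2753 and 3005 CPM in met-2 worms, against 10195, 4463 and 16068 CPM in N2 (-1.92 ± 0.39, adjusted p 0.00156). The other 5 lay between -0.73 and -0.93, and each lost its call without met-2 replicate 1 (adjusted p 0.0714 to 0.135). Without the 3′ UTR trend rpl-17 (-0.50, adjusted p 0.0916) and dct-16 (-0.66, adjusted p 0.0681) lost theirs too. All but C37A2.7 lost it without other libraries too. Cytosolic ribosomal protein genes as a list had 9 of 78 called lower and 1 higher, with a median of -0.26, which was 0.04 without the 3′ UTR trend, with 8 called lower and 4 higher. The 9 became 42 without met-2 replicate 3 and 6 without met-2 replicate 1. Among gains, the intestinal aspartyl protease gene asp-1 read 5626, 5260 and 6021 CPM in met-2 worms and 2487, 2206 and 2774 CPM in N2 (1.22 ± 0.23, adjusted p 0.000981). The gain of rps-2 (0.80 ± 0.29) lost its call without N2 replicate 1 or 3 or met-2 replicate 1 or 2 (adjusted p 0.0646 to 0.135).

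The calls were spread unevenly over the chromosomes, placed by gene name in the WBcel235 annotation. On the X chromosome 40.8% of 2003 tested genes were called higher and 7.89% lower, with a median of 0.52. On the autosomes the shares were 22.9% and 24.8% of 12187 genes, with a median of -0.04. Without the 3′ UTR trend the X still had 31% higher and 9.74% lower, with a median of 0.33. Genes of the X have longer 3′ UTRs, at a median of 206 bases, than all genes tested, at 136. The X chromosome is largely silent in the germline of C. elegans, as background, and the germline markers above were lower in met-2, whose part in the X chromosome shares was not tested.

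Within the autosomes the arms, taken by gene midpoint as the outer parts of each when cut into 3 equal lengths, differed from the centres. On the arms 25.2% of 6990 tested genes were called higher and 22.5% lower, and in the centres 19.7% of 5197 were higher and 27.9% lower. The gap was wider among the largest rises. A rise of over 2 was called for 3.82% of arm genes and 1.40% of centre genes, while falls of that size were called for 1.62% and 1.92%. On each of the 5 autosomes the arm share of rises over 2 exceeded the centre share. It was highest on chromosome V, at 5.47% of the arm genes, and lowest on III, at 2.52%, or 1.3% without the 3′ UTR trend. Among the quintile of genes with the lowest levels the shares were 7.92% on arms and 2.83% in centres, and in the quintile with the highest levels they were 1.52% and 1.2%, a far narrower gap. These shares are of tested genes only, and genes low in both strains did not pass the filter on low counts. A gene near silent in N2 was tested only if its level in met-2 passed that filter. The share of large rises in the lowest quintile is therefore set in part by the filter. Whether the filter acted alike on arms and centres was not tested. Genes are not independent samples, and no test was made on these shares.

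**Figure D4:**
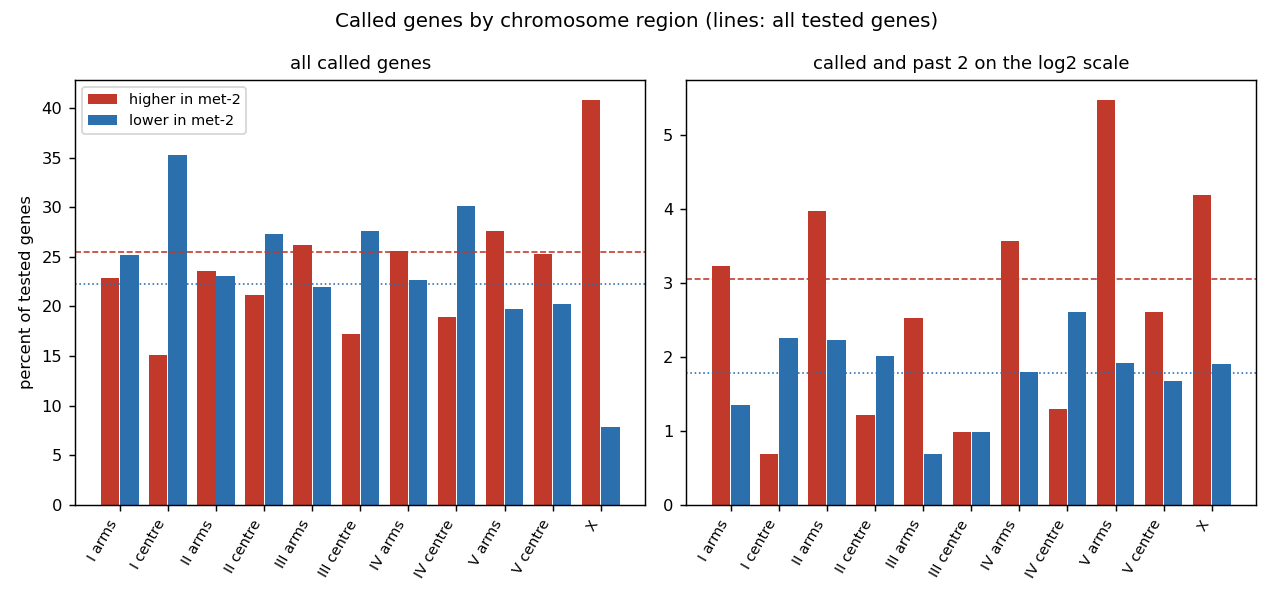
Percent of tested genes called higher (red) or lower (blue) in met-2 worms than in N2 on EV, by autosome arms and centre and for the X chromosome. The left panel has all called genes and the right panel those past 2 on the log2 scale, with lines at the share over all tested genes. The X has 40.8% higher, and rises of over 2 are more frequent on the arms of each autosome than in its centre.

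The same strain difference was measured on cco-1 RNAi in 6 other libraries, which share none with the comparison on EV. There 1317 of 14244 genes were called (9.25%), 730 higher (5.12%) and 587 lower (4.12%) in met-2, with 1.85% higher and 1.61% lower by over 2. One met-2 library on that diet, replicate 1, stood apart: its deviations correlated with 3′ UTR length at -0.58, against 0.29 and 0.39 in replicates 2 and 3. Without it 4405 genes were called (30.9%), 2131 higher and 2274 lower. Of 6737 genes called on EV and tested there, 5315 had the same direction (78.9%, against 68% of all genes), and without that library 6113 of 6754 did (90.5%, against 77.3%). Of the genes higher by over 2 on EV, 89.1% had the same direction on cco-1 RNAi, or 96.6% without that library, and of those lower by over 2, 96.3% or 99.1%. Lists varied on that diet. All 6 yolk genes were called lower. Of 20 ER stress genes 1 was called higher (median 0.39), or 10 without that library. Of 28 molting genes 1 was higher and 0 lower (median -0.03). Of 8 hypodermis markers and 19 furrow and other larval collagens 0 were called. Of 60 other sperm genes 3 were lower, or 35 of 59 without that library. The gene hsp-6 did not pass (0.31, adjusted p 0.73), but did without that library (0.72, adjusted p 0.0224).

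Of the 15 highest genes of the comparison on EV, 12 were called higher on that diet, and of the 15 lowest 11 were called lower. Those not called were madf-9, dgn-1, npp-25, hsp-16.48 (T27E4.9), hsp-16.41, plg-1 and nsph-4.2, which was at 0.00 there (adjusted p 1). Without the met-2 library that stood apart 15 and 13 were called. C38D9.2 read 143, 199 and 239 CPM in met-2 worms and 0.635, 0.922 and 1.03 CPM in N2 on cco-1 RNAi (7.96, adjusted p 0.000168). F15D4.5 read 159, 133 and 186 CPM in met-2 worms and 2.27, 2.37 and 2.01 CPM in N2 there (6.36, adjusted p 0.000168). The gene F55G1.6 was low there too, at 1.30, 0.587 and 0.363 CPM in met-2 worms and 27.1, 26.9 and 23.3 CPM in N2 (-4.82, adjusted p 0.00394).

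The yolk genes vit-2 and vit-6 differed more between the strains on cco-1 RNAi than on EV. The test of that difference, over the 12 libraries of both strains and diets, called 0 genes with a larger and 4 with a smaller met-2 over N2 value on cco-1 RNAi, of 14827 (0.027%), while 3016 had an unadjusted p under 0.05 and DESeq2 called 247 and 248. The 4 were vit-6, vit-2, ule-5 and D1086.6. On cco-1 RNAi vit-6 read 31.9, 41.9 and 42.7 CPM in met-2 worms and 1579, 3761 and 1511 CPM in N2, and its met-2 over N2 value there minus that on EV was -4.42 ± 0.57 (adjusted p 0.0161). On that diet vit-2 read 23.9, 20.6 and 19.6 CPM in met-2 worms and 1026, 2459 and 950 CPM in N2 (-3.90 ± 0.59, adjusted p 0.0451). The count depended on single libraries, since it was 0 without any 1 of the N2 libraries on EV, without met-2 replicate 1 on EV or without met-2 replicate 2 or 3 on cco-1 RNAi, and 376 without met-2 replicate 1 on cco-1 RNAi.

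**Figure D5:**
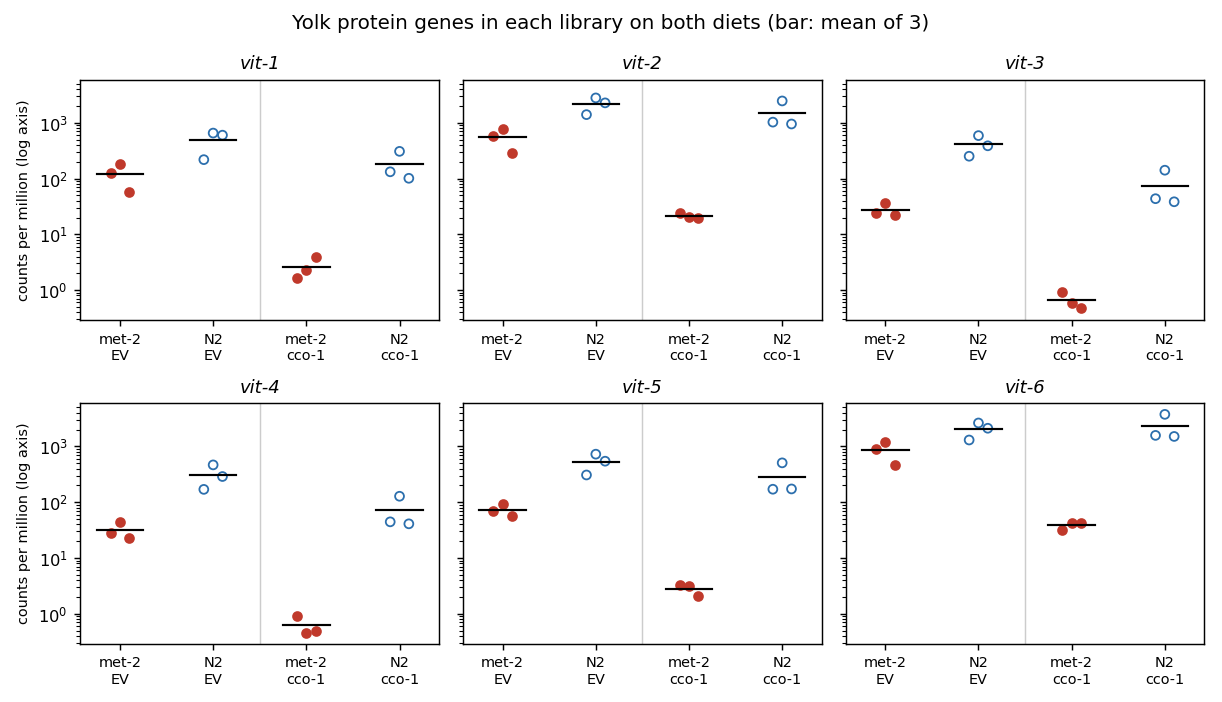
CPM of the 6 yolk protein genes in each library on a log axis, for met-2 (filled red) and N2 (open blue) on EV and on cco-1 RNAi, with bars at the mean of 3 libraries. For each gene met-2 lies below N2 on both diets, and the gap is drawn wider on cco-1 RNAi, a difference between diets that passed the test for vit-2 and vit-6 only.

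In the lin-65 mutant on EV, which has a replicate whose strain field in the labels reads N2, the leading genes did not share one pattern, as a description without a test. The gene scrm-4 averaged 104 ± 6.78 CPM in met-2 worms, 36.2 ± 13.7 CPM in lin-65 worms and 3.81 ± 0.498 CPM in N2. The gene vit-3 averaged 27.3 ± 7.57 CPM in met-2 worms and 24 ± 6.13 CPM in lin-65 worms. The gene trx-2 averaged 106 CPM in lin-65 worms and 102 CPM in N2. The kinase gene plk-3 was not near 0 in lin-65 worms, at 64.3, 74.7 and 62.1 CPM. It was still below every N2 library (185, 165 and 115 CPM). Its neighbours F55G1.6 (30.1, 21.1 and 21 CPM) and slc-25A18.2 (4.69, 7.68 and 6.93 CPM) were also below every N2 library in lin-65 worms.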

How the data were processed

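RNA of L4 whole worms was sequenced from oligo-dT selected RNA with ScriptSeq v2 libraries, per the labels' protocols. The deposited values are raw counts of reads per gene model, 1 file per library. The submitters' processing notes name Bowtie 0.12.7 and DESeq without saying what each did. Which genome build, gene set, counting rule and strand the submitters used was not found in these sources, so overlapping, antisense and near-identical genes may share reads.

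Gene models were matched by sequence name to WBcel235 (Ensembl release 115), which gave symbols, chromosomes, gene order and 3′ UTR lengths for 20071 of 20505 models. The 434 others held 0.159% of counts. The 6 EV libraries of met-2 and N2 were fitted with edgeR 4.0.16 (R 4.3.3) using TMM scaling, its filter on low counts by group, and the robust quasi-likelihood test with Benjamini-Hochberg adjustment over all genes tested (two-sided, threshold 0.05). The strain difference on cco-1 RNAi and the difference between diets were fitted in the same way on 6 and 12 libraries. DESeq2 1.42.0, other scalings and filters, more libraries in 1 fit, a replicate block and leaving out each library were alternatives. Removal of the 3′ UTR trend, a loess offset per library, was added after the data were seen. The 784 tested genes without an annotated 3′ UTR took the median deviation of those genes in each library as their offset. Many major sperm protein and histone genes are among them, with a median annotated length of 0 bases in each of these lists. The scripts were tested on simulated data.

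Named genes were the 15 highest and 15 lowest called genes with non-overlapping libraries, at least 5 CPM on average in the higher strain and a symbol, the called genes with the largest gains and losses in CPM, and the leading members of gene lists. Genes chosen after their values were seen, beside those so described in the text, were set-25, set-32, hpl-2, hsp-4, hsp-60, atfs-1, vit-1, ND1, COX3 and MTCE.4. Members and lists were chosen with earlier results of these data known. Counts of list members are set beside those of all genes tested. Library totals set the precision, and the limit of 3 counts covers counting error only. No sequence is printed.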

Additional observations from a re-analysis of the deposited data

Results flagged for a closer look

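The strain difference of 4 genes differed between diets, by the test of that difference in edgeR over 12 libraries (0.027% of genes called). The met-2 over N2 value on cco-1 RNAi minus that on EV was -4.42 for vit-6 (adjusted p 0.0161), -4.33 for D1086.6 (adjusted p 0.0161), -3.91 for ule-5 (adjusted p 0.0256) and -3.90 for vit-2 (adjusted p 0.0451). The gene D1086.6 read 13.9, 17.3 and 7.58 CPM in met-2 worms and 8.90, 15.2 and 18 CPM in N2 on EV, where the strains overlapped (-0.13, adjusted p 0.749). On cco-1 RNAi it read 1.24, 1.17 and 1.45 CPM in met-2 worms and 21.1, 49 and 28.4 CPM in N2 (-4.49, adjusted p 0.00357). The gene ule-5 read 34, 57 and 19 CPM in met-2 worms and 63, 94 and 93.9 CPM in N2 on EV, and 1.5, 1.89 and 1.21 CPM in met-2 worms and 48.1, 90.1 and 49.5 CPM in N2 on cco-1 RNAi. The yolk genes vit-2 and vit-6 are described above, and another, vit-1, did not pass (-3.95 ± 0.74, adjusted p 0.0894).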

How the results depend on the processing

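On EV 3662 genes were called higher and 3203 lower. With all 18 libraries in 1 fit 2306 were higher and 2310 lower, and leaving out 1 library gave 2920 to 3477 higher and 2395 to 3224 lower. The other alternatives stayed within 1.5 times of both counts. On cco-1 RNAi (730 higher, 587 lower) the counts were 1440 and 1163 with DESeq2, 1697 and 1449 with all 18 libraries, 1970 and 2424 with 16 libraries, 1495 and 1387 without the 3′ UTR trend, 34 to 2131 higher and 38 to 2274 lower leaving out 1 library. For the difference between diets (0 higher, 4 lower) they were 247 and 248 with DESeq2, 1 and 19 without a filter, 0 lower with all 18 libraries, 16 and 111 with 16 libraries, 13 and 60 without the 3′ UTR trend, 0 to 75 higher and 0 to 376 lower leaving out 1 library. The cause was not tested. The 16 libraries leave out met-2 replicate 1 on cco-1 RNAi and a lin-65 replicate whose strain field reads N2. The share of EV calls that were higher was 53.3%, and 48.6% without the 3′ UTR trend.

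Replicate numbers did not pair the samples, with correlations of same-numbered deviations of -0.06, -0.02 and -0.11. With a replicate block 3429 genes were higher and 2947 lower on EV, 204 and 223 on cco-1 RNAi, and 7 lower between diets.

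Of 143 named genes besides met-2 138 were called. Of their 2002 values under alternatives 1933 kept direction and side of the threshold, 59 lost the call, 3 gained one and 7 changed sign, none of these 7 in a called gene. They were set-25 and hsp-60 at -0.64 and -0.41 without the 3′ UTR trend and, leaving out 1 library, set-25 at -0.07 to 0.27, hsp-60 at -0.02 to 0.10 and D1086.6 at -0.40 to 0.11. Low counts limit the size of the folds of genes near 0 in 1 strain.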
